A study of Homo sapiens with 12 samples.

Results

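Translation initiation and elongation factors are the proteins that bring a ribosome to the start codon of an mRNA and then move it along the message. Their genes were taken here as all genes in the 6 deposited lists of acetylated mRNA peaks whose symbol is EIF or EEF followed by a digit, without the eIF2 kinases (symbols starting with EIF2AK). This gave 40 genes out of the 10870 that any list holds, and 216 peaks out of 61804. RefSeq holds 66 protein-coding genes with such symbols, so 26 had no peak in these lists. The share of all RefSeq protein-coding genes without a peak was not computed, so this count has no background.

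HaCaT, an established human keratinocyte line, was studied by acRIP-seq, in which an antibody enriches RNA with the modified base N4-acetylcytidine (ac4C) and peaks are called where the pulled-down RNA exceeds background. NAT10, the acetyltransferase that makes ac4C, was overexpressed from plasmids in 3 replicates, and 3 others carried an empty vector, with 1 peak list for each replicate. The labels give no clone or pool and do not say that replicates were separate cultures. Spreads and p-values therefore measure only how these samples differ, possibly for technical reasons. The lists give a fold (pulled-down signal over background, the authors' value) but no read counts, so depth is unknown. In these bulk samples, fewer cells carrying acetylated RNA and less acetylated RNA per cell cannot be told apart, and RNA abundance was not analysed here.

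Initiation starts when eIF2, carrying the initiator tRNA, joins the small ribosomal subunit together with eIF1, eIF1A, eIF5 and the multi-subunit scaffold eIF3. The eIF4 proteins bind the mRNA cap, unwind the leader and load the mRNA, eIF5B helps the large subunit to join, and eEF1 and eEF2 then deliver aminoacyl-tRNA and translocate the ribosome. eIF2B recharges eIF2 with GTP, and the eIF4E-binding proteins hold back the cap-binding protein eIF4E, a step set by mTOR signalling.

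The lists differ in length. Values of the 3 lists of a group are given in the order of replicates 1, 2 and 3. The overexpression lists held 12157, 12119 and 3105 peaks on 5798, 5949 and 2306 genes, and the control lists 4324, 19261 and 10838 peaks on 3137, 7919 and 5956 genes. NAT10 carried 14, 14 and 15 peaks in the overexpression lists, against 1, 2 and 2 in the control lists, which fits the labels. Of 15 basal keratinocyte marker genes, 12, 13 and 3 had a peak in the overexpression lists and 10, 14 and 13 in the control lists, and all 15 had one in some list. For markers of other cells, a peak in any list was found on 3 of 7 genes of melanocytes and 2 of 7 of fibroblasts. It was found on 3 of 5 of endothelium and 1 of 6 of immune cells, with at most 2 of a type in a single list. Those of endothelium numbered 2, 1 and 0 in the overexpression lists and 2, 2 and 1 in the control lists. No share over all genes was set beside these marker counts, so they do not settle cell identity. Overexpression replicate 3 stands apart as the shortest list: it held a peak on 3 of the 40 translation factor genes (7.50%), against 21.2% of all genes with a peak. Its part in the results was not tested beyond giving them without it.

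Peaks at the gene start recurred on several genes, among them EEF1AKMT2, whose start peak was in 4 lists. Shown here are EIF3J, EIF3B, EIF4A3 and EIF5B, which later results turn on, although the EIF5B start peak was in only 2 lists. The 30 bases that lie from 21 to 50 after the RefSeq start of each gene (RefSeq, GRCh38.p14) are shown on the strand of the gene because these peaks reach into them. For EIF3B this is a start inside the RefSeq span, which begins at 2354086. Capitals mark the bases inside the peaks of at least 2 lists. The peak lists give no strand.
EIF3J (chr15:44537167-44537196, plus strand): TCTCACACACGCTCACACCCGGCTCGAGAT
EIF3B (chr7:2354847-2354876, plus strand): gcggcgcgcggtgcggcctGGGAGAGTCGG
EIF4A3 (chr17:80147079-80147108, minus strand): ACAGCGAGGTCGGCAGCGGCACAGCGAGGT
EIF5B (chr2:99337409-99337438, plus strand): CAGTGCGCGGGTCTGTGGAGAGCCGGGTGC
The run of EIF3J holds 13 cytidines, the base that NAT10 modifies, and those of EIF3B, EIF4A3 and EIF5B hold 8, 8 and 7. Of the EIF3B run, 11 of the 30 bases lie inside the peaks, and most of its cytidines lie outside them. The letters CNNCNNCNN, a cytidine spaced by 2 other bases, were searched on the gene's strand with overlapping matches counted. They occurred at 2 places in the EIF4A3 run and at 0 in the runs of EIF3J, EIF3B and EIF5B, and 36.3% of all 35116 RefSeq start windows hold them in the same stretch.

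Translation factor genes carried peaks in fewer overexpression than control lists. Of the 40 genes, 4 (10%) had a peak in more lists of overexpression, against 25.6% of all genes with a peak, and 29 (72.5%) had one in more control lists, against 46.3% of all genes. The other 7 (17.5%) were found in equally many lists of both groups, against 28.1%. The median gene was in 1 list fewer of the overexpression group (difference −1), while the median over all genes was 0. None of the 40 was in every list of a group and missing from the other group, while 29 of all genes (0.267%) were so on the overexpression side and 118 (1.09%) on the control side. At least 4 lists held 16 of the 40 genes (40%), against 35.3% of all genes, and all 6 lists held 0, against 6.23%. Of these 16 genes, 15 had no peak in overexpression replicate 3, the shortest list, the exception being EIF4ENIF1. The same share over all genes in at least 4 lists was not computed, so this count has no background. Fisher's exact test of peak presence, for which 3 lists against 3 cannot give a p below 0.1, called 0 of the 40 genes, at an unadjusted p under 0.05 as well as after Benjamini-Hochberg adjustment over all 10870 genes. The plot of list differences shows the shift of the factor genes to the control side.

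**Figure D1:**
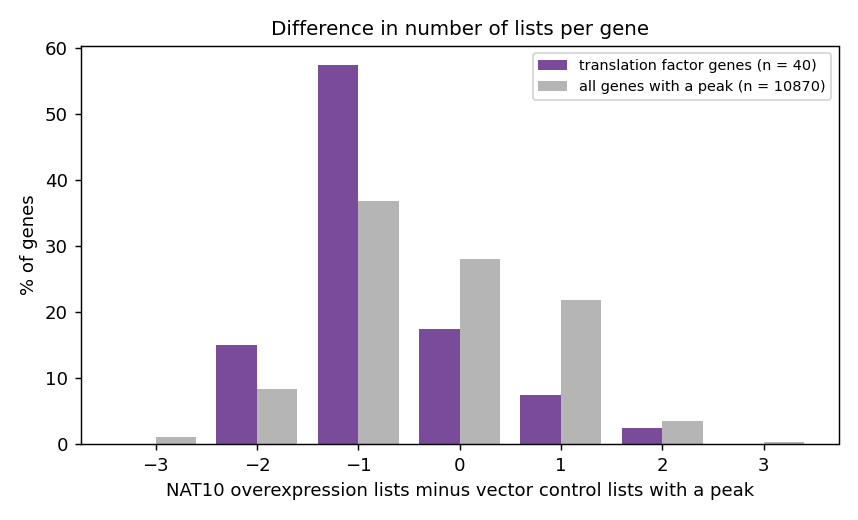
Percent of genes (vertical axis) by the number of NAT10 overexpression lists minus vector control lists with a peak (horizontal axis), for the 40 translation factor genes and for all 10870 genes with a peak. At −1 stand 57.5% of the factor genes and 36.8% of all genes, and at 1 stand 7.50% and 21.8%.

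These counts moved with the lists included. Without overexpression replicate 3, 9 of 40 factor genes (22.5%) were in a larger share of overexpression lists and 21 (52.5%) in a larger share of control lists, against 43% and 40.5% of all genes. Without control replicate 2, these were 8 of 30 (26.7%) and 22 (73.3%), against 48.8% and 43.7%. Without both control replicate 2 and overexpression replicate 3, the longest and shortest lists, 6 of 29 (20.7%) leaned to overexpression and 8 (27.6%) to control, against 44.4% and 20.9% of all genes. With only the 3105 highest-scoring peaks of each list, 7 of 24 (29.2%) leaned to overexpression and 12 (50%) to control, against 39% and 42.2% of all genes. Factor genes thus stayed under the background share on the overexpression side and over it on the control side in each of these settings.

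Counted per list, 18, 21 and 3 factor genes had a peak in the overexpression lists, against 15, 33 and 24 in control replicates 1, 2 and 3. The means were 14 ± 9.64 genes in overexpression lists and 24 ± 9 genes in control lists (SD, n = 3 each). These counts overlap: 18 and 21 in overexpression lie above the 15 of control replicate 1. The difference of −10 genes was −4.5 without overexpression replicate 3 and 0 when control replicate 2 was left out as well.

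Relative to list length the groups did not overlap. Factor genes made up 0.310%, 0.353% and 0.130% of the genes with a peak in the overexpression lists, against 0.478%, 0.417% and 0.403% in control replicates 1, 2 and 3. The exact 95% binomial intervals, which cover counting error only, ran from 0.184% to 0.490%, 0.219% to 0.539% and 0.0268% to 0.380% in the overexpression lists and from 0.268% to 0.787%, 0.287% to 0.585% and 0.258% to 0.599% in the control lists, so for the shares of genes every list's interval overlaps those of the others. By peaks, the shares were 0.206%, 0.297% and 0.161% in the overexpression lists, against 0.740%, 0.369% and 0.434% in the control lists. The interval of control replicate 1 (0.507% to 1.04%) lay above those of all 3 overexpression lists (upper ends 0.303%, 0.411% and 0.375%) and of control replicate 2 (upper end 0.465%). That of control replicate 3 (lower end 0.319%) lay above that of overexpression replicate 1, and the other pairs across groups overlapped. The intervals for peaks treat peaks as independent, but several can lie on 1 gene, so they are too narrow. In control replicate 1 the 32 factor peaks lay on 15 genes, with 7 on EIF5B and 6 on EIF3A. Their separation is therefore not read as a group difference. The share of each overexpression list lay below that of each control list on both scales, with mean differences of −0.168 percentage points of genes and −0.293 percentage points of peaks. Without overexpression replicate 3 these were −0.101 and −0.263, and without control replicate 1, the list with the highest shares, −0.145 and −0.180. No p-value is given for these shares, since the genes were chosen with earlier results of these data known.

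**Figure D2:**
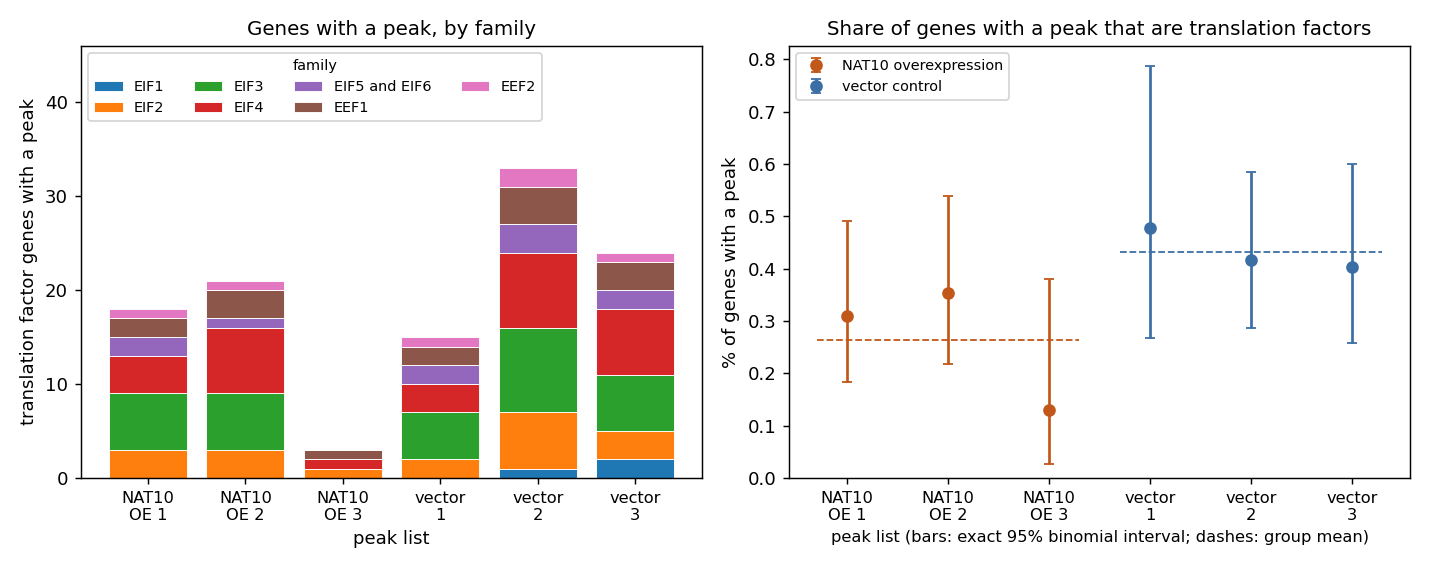
Left, number of translation factor genes with a peak in each list, stacked by family. Right, percent of all genes with a peak that are translation factors, with exact 95% binomial intervals (bars) and group means (dashes): 0.130% to 0.353% in the 3 NAT10 overexpression lists and 0.403% to 0.478% in the 3 vector control lists.

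Factor genes that had a peak carried fewer of them in the overexpression lists. There were 1.39, 1.71 and 1.67 peaks per factor gene in the overexpression lists, against 2.13, 2.15 and 1.96 in control replicates 1, 2 and 3, with no overlap between groups and no test. The 1.67 of overexpression replicate 3 rests on 5 peaks on 3 genes, 3 of these peaks on EIF4ENIF1. EIF5B alone gave 1, 0 and 0 of the peaks in the overexpression lists and 7, 3 and 6 in the control lists, and the ratio without it was not computed. Over all genes the same ratio was 2.10, 2.04 and 1.35 against 1.38, 2.43 and 1.82, and there the groups overlapped. The peaks on factor genes were of low fold within their lists: their median fold was 4.99, 5.88 and 6.92 in the overexpression lists and 5.57, 5.07 and 5.59 in the control lists, below the median of all peaks of the same list (6.30, 6.39 and 7.20, against 7.22, 6.82 and 6.59) in each of the 6. The median factor peak stood at the 31.8th percentile of fold in its list. No factor peak had an authors' false discovery rate under 29.3%, read as percent from its range. This is not particular to factor peaks: the lowest rate of any peak of any gene was 29.28%, in control replicate 2.

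**Figure D3:**
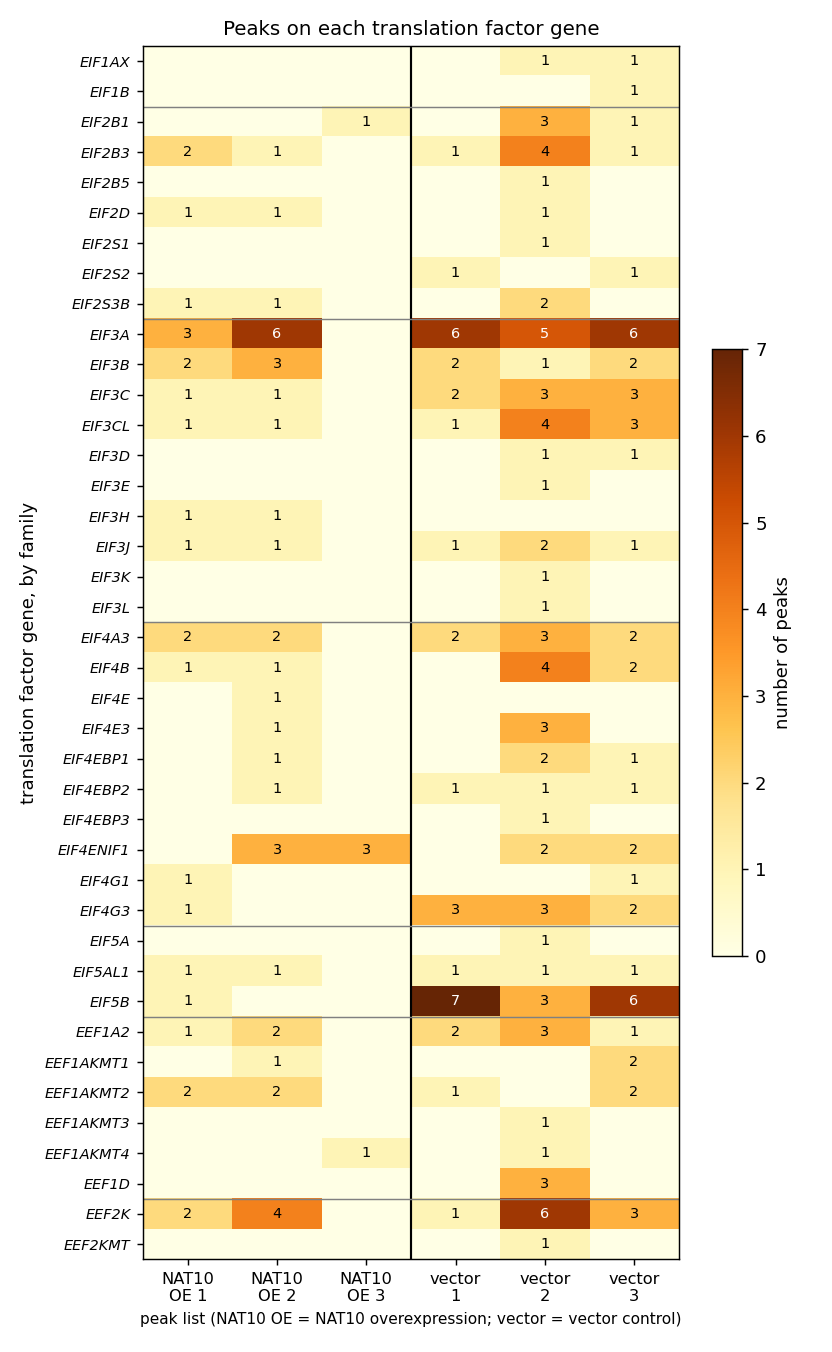
Number of peaks on each of the 40 translation factor genes (rows, by family) in the 3 NAT10 overexpression lists (left) and the 3 vector control lists (right); empty cells are 0. EIF5B has 1, 0 and 0 peaks against 7, 3 and 6, and the column of overexpression replicate 3 is empty except for 3 genes.

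The eIF2 family, with the GTPase eIF2 and its exchange factor eIF2B, had 7 genes with a peak. In the overexpression lists 3, 3 and 1 of them had a peak, against 2, 6 and 3 in the control lists, and these counts overlap. EIF2B3, the gamma subunit of eIF2B, was the most frequent: it had 2, 1 and 0 peaks in the overexpression lists, against 1, 4 and 1 in control replicates 1, 2 and 3. Its highest folds were 8.06 and 10.1 in overexpression replicates 1 and 2, and 5.85, 5.92 and 4.11 in the control lists. Its peaks fell at scattered positions, none shared by more than 2 lists.

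EIF2S2, the beta subunit of eIF2, had 1 peak (chr20:34112096-34112332) in control replicates 1 and 3, with folds of 5.51 and 5.59, and none in the overexpression lists; control replicate 2 had none either. EIF2S1, the alpha subunit that stress kinases phosphorylate, and EIF2B5, the catalytic subunit of eIF2B, each had 1 peak, in control replicate 2. EIF2B1 had peaks in overexpression replicate 3 (fold 2.45) and control replicates 2 and 3 (5.20 and 2.98), and the peaks of overexpression replicate 3 and control replicate 3 overlapped. On the overexpression side were EIF2D, which can place initiator tRNA without eIF2, and EIF2S3B, each in overexpression replicates 1 and 2 and control replicate 2. EIF2S3B is a near-identical copy of EIF2S3, which had no peak, so the origin of its reads is uncertain.

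The eIF3 scaffold had 10 genes with a peak, the highest number together with the eIF4 family. It had 6, 6 and 0 genes with a peak in the overexpression lists, against 5, 9 and 6 in the control lists, so that the groups overlapped and overexpression replicate 3 held none. Of the 10 genes, 1 (EIF3H) was more frequent with overexpression and 9 in control, where the shares of all genes were 25.6% and 46.3%. Among the 9, EIF3A, EIF3B, EIF3C, EIF3CL and EIF3J were in every list except overexpression replicate 3. The 9 include 3 genes (EIF3E, EIF3K and EIF3L) found in control replicate 2 alone. Without control replicate 2 and overexpression replicate 3, the difference in eIF3 genes per list was 0.5 in place of −2.67.

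EIF3A, the largest subunit, carried 3, 6 and 0 peaks in the overexpression lists, against 6, 5 and 6 in the control lists. Its 6 positions, all between 119037119 and 119058303 on chromosome 10, had the same ends in every list that held them. At chr10:119049801-119049985, where the groups overlapped, the folds were 7.49 and 4.63 in overexpression replicates 1 and 2, against 9.47, 10.2 and 7.29 in the control lists. At chr10:119044054-119044142 the fold was 3.30 in overexpression replicate 2, below the 10.9, 13.4 and 7.70 of the control lists, and overexpression replicate 1 had no peak. At chr10:119038238-119038439 it was 3.59 and 4.42, below the 9.64, 5.68 and 6.70 of the control lists. The groups overlapped at the remaining 3 positions. At chr10:119037119-119037309 the fold was 6.51 in overexpression replicate 2, against 9.31, 6.21 and 11.7 in the control lists. At chr10:119041994-119042772 it was 5.01 and 3.56 in overexpression replicates 1 and 2, against 4.84, 5.07 and 5.51 in the control lists. At chr10:119057956-119058303 it was 4.5 in overexpression replicate 2, between the 4.13 and 6.03 of control replicates 1 and 3. Folds come from libraries of unknown depth, so these values are set side by side without a test.

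EIF3B, which holds the eIF3 core together, had its highest peak at chr7:2354866-2355420, over the start sequence shown above. Its fold was 22.0 and 23.8 in overexpression replicates 1 and 2, against 15.6, 18.2 and 30.9 in the control lists. The groups overlapped there, and in each of these lists the peak ranked above the 90th percentile of fold (98.1 and 99.0 in overexpression, 92.4, 90.7 and 99.3 in control).

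EIF3J, a loosely bound subunit at the decoding site, had the highest fold of any factor peak, 42.9 in control replicate 3. The peaks merged to a position across the gene's start (chr15:44537057-44537237), and the folds were 8.97 and 10.3 in overexpression replicates 1 and 2, while control gave 20.4 and 42.9 in replicates 1 and 3. Both overexpression values lay below both control values, while control replicate 2 had a peak of fold 8.87 at chr15:44537324-44537427 instead, just behind it.

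EIF3C, the subunit that contacts eIF1 and eIF5, had 1, 1 and 0 peaks in the overexpression lists, against 2, 3 and 3 in the control lists. The positions chr16:28711527-28711787 and chr16:28713909-28714098 were found in each of the 3 control lists but in none with overexpression, at folds of 2.45, 2.75 and 3.45 and of 2.18, 4.71 and 3.90. The position chr16:28731829-28732192 was present in overexpression replicates 1 and 2 (2.98 and 3.96), above control replicates 2 and 3 (2.71 and 2.64). EIF3CL is a near-identical copy on the same chromosome, and 9 of the 10 EIF3C peaks had an EIF3CL peak within 0.1 of their fold in the same list. The match used fold alone, not position in the gene, and 6 of the 11 pairs matched in this way had equal length. EIF3CL had 1, 1 and 0 peaks in the overexpression lists, against 1, 4 and 3 in the control lists, and its top fold was 2.92 and 3.94 in overexpression replicates 1 and 2, against 2.43, 4.68 and 3.99 in the control lists. Reads of the pair cannot be told apart with these files.

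EIF3H was the factor gene that leaned most to overexpression. Its peak at chr8:116697053-116697237 had folds of 23.03 and 7.28 in overexpression replicates 1 and 2 and was in no control list, nor in overexpression replicate 3. Fisher's exact test of 2 lists against 0 gave p = 0.4 (adjusted p = 1). EIF3D, which can bind the cap itself, was in 0 overexpression lists and in control replicates 2 and 3, at 2 different positions.

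The eIF4 family, which recruits mRNA through its cap, had 10 genes with a peak, 4 of them regulators of eIF4E (EIF4EBP1, EIF4EBP2, EIF4EBP3 and EIF4ENIF1), with 4, 7 and 1 in the overexpression lists, against 3, 8 and 7 in the control lists. EIF4E was found more often with overexpression, by 1 peak in 1 list that lay outside its RefSeq span. Of the other genes, 5 were found more often in control and 4 equally often. The shares of all genes were 25.6%, 46.3% and 28.1%, so the control side of this family was near the background. EIF4A3, the helicase of the exon junction complex, had 2, 2 and 0 peaks in the overexpression lists, against 2, 3 and 2 in the control lists. Its start peak, chr17:80146793-80147183, covers the sequence shown above and had folds of 7.88 and 11.8 in overexpression replicates 1 and 2, against 9.16, 19.7 and 15.0 in the control lists. The other, chr17:80144172-80144244, had 3.12 and 7.78 against 5.73, 7.24 and 8.09. Both pairs of ranges overlap.

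EIF4G3, a scaffold that bridges the cap-binding protein and eIF3, had 1, 0 and 0 peaks in the overexpression lists, against 3, 3 and 2 in the control lists. Every control list had more peaks than any overexpression list, but no position was in more than 2 lists, and its single overexpression peak (chr1:21089138-21089213, fold 2.99) lay apart from them. EIF4G1, the main scaffold, had 1 peak at its far end, chr3:184334727-184335358, in overexpression replicate 1 (4.74) and control replicate 3 (3.89). EIF4B, the helper of the eIF4A helicase, had 1, 1 and 0 peaks against 0, 4 and 2, and overlapped between groups.

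EIF4EBP2, a repressor of eIF4E, had 1 peak at chr10:70404379-70404546 in overexpression replicate 2 (fold 6.51), against all 3 control lists (2.89, 12.2 and 5.85). EIF4EBP1, the repressor best known as a target of mTOR, was in overexpression replicate 2 and control replicates 2 and 3, and EIF4EBP3 in control replicate 2. EIF4E3, a relative of the cap-binding protein, had 0, 1 and 0 peaks in the overexpression lists, against 0, 3 and 0 in the control lists, at different positions. EIF4ENIF1 carries eIF4E into the nucleus and to processing bodies. It had 0, 3 and 3 peaks in the overexpression lists, against 0, 2 and 2 in the control lists. The 3 peaks of overexpression replicate 3 had folds of 7.49, 11.1 and 6.92 and overlapped no peak of another list. EIF4E itself had 1 peak, in overexpression replicate 2 (fold 6.39), at chr4:98871684-98871922, outside its RefSeq span, which runs from 98879276 to 98929133.

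EIF5B gave the widest gap in peak number. It had 1, 0 and 0 peaks in the overexpression lists, against 7, 3 and 6 in control replicates 1, 2 and 3 (0.333 ± 0.577 and 5.33 ± 2.08 peaks, SD, n = 3 each). The groups do not overlap, and the exact permutation p of 0.1 is the smallest this design gives (adjusted p = 1 over all genes). EIF5B, EIF3C and EIF4G3 were the 3 of 40 factor genes (7.50%) with more peaks in every control list than in any overexpression list, against 1.39% of all genes, and 0 of 40 had the reverse, against 0.386%. Without overexpression replicate 3 the count was again 3 of 40, against 1.59% of all genes. It was 4 of 30 (13.3%) without control replicate 2, against 2.51%, and 4 of 29 (13.8%) without both, against 2.91%. With the 3105 highest-scoring peaks of each list it was 1 of 24 (4.17%), against 1.42%.

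Along EIF5B, which spans chr2:99337389-99401326, the peaks fell at 7 positions. The position chr2:99363645-99363862 was the one shared with overexpression, at a fold of 4.41 in overexpression replicate 1, against 6.42, 7.23 and 5.10 in control replicates 1, 2 and 3. Those at chr2:99360236-99360361 and chr2:99371656-99371730 had a peak in each control replicate and none with overexpression, with folds of 5.06, 3.28 and 6.05 and of 18.4, 12.7 and 5.59. The start peak, chr2:99337353-99337589, which covers the sequence shown above, reached 12.4-fold and 12.5-fold in control replicates 1 and 3 and was missing from control replicate 2 and all overexpression lists.

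**Figure D4:**
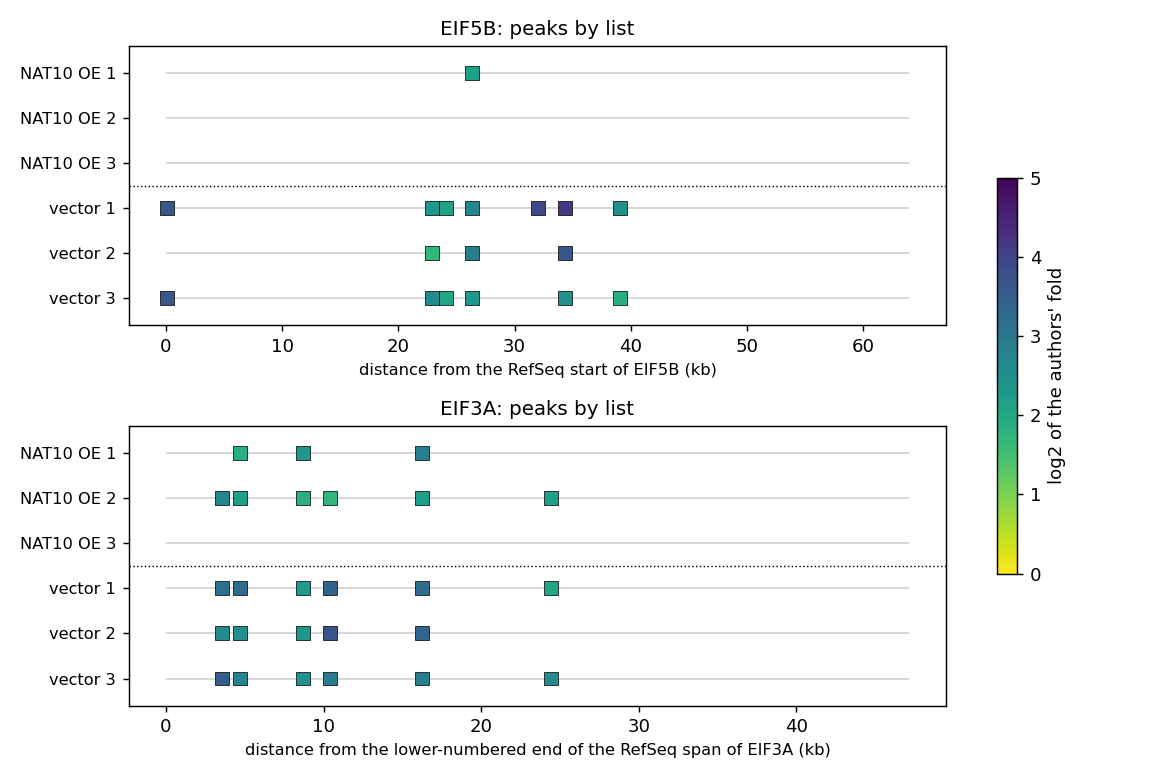
Peaks of EIF5B (top) and EIF3A (bottom) in each list, as squares at the peak's centre; the horizontal axis is the distance in kb along the RefSeq span, and the colour is the log2 of the authors' fold. EIF5B has 1 square in the NAT10 overexpression lists and 16 in the vector control lists. EIF3A has 3, 6 and 0 squares in the overexpression lists, against 6, 5 and 6 in the control lists, at shared positions.

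The other genes of the group were EIF5A and EIF5AL1. EIF5A, which relieves ribosomes stalled at prolines, had 1 peak, in control replicate 2. EIF5AL1, a near-identical copy of EIF5A without introns, had a long peak in overexpression replicates 1 and 2 (4.67 and 6.64) and all control lists (3.43, 2.76 and 6.49), whose reads may belong to either gene. The eIF5 and eIF6 group as a whole had 2, 1 and 0 peaks in the overexpression lists, against 8, 5 and 7 in the control lists, which do not overlap. Without EIF5B the group had 1, 1 and 0 peaks in the overexpression lists, against 1, 2 and 1 in the control lists, which overlap. Of the eIF1 family, which helps to select the start codon, EIF1AX had 1 peak in control replicates 2 and 3 (folds of 7.15 and 2.65) at different positions and EIF1B 1 in control replicate 3, with none in the overexpression lists.

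Of genes with EEF symbols, 8 had a peak, with 3, 4 and 1 in the overexpression lists, against 3, 6 and 4 in the control lists. These counts overlap. Overexpression was the more frequent side for 0 genes and control for 5, and 3 were even, where the shares of all genes were 25.6%, 46.3% and 28.1%. Of the 8, 2 (EEF1A2 and EEF1D) encode elongation factors, and 6 encode enzymes that modify them: 5 methyltransferases and the kinase EEF2K. The 2 factors counted 1, 1 and 0 genes in the overexpression lists, against 1, 2 and 1 in the control lists, and the 6 enzymes 2, 3 and 1, against 2, 4 and 3. EEF1A2, the form of the tRNA carrier typical of muscle and neurons, had 1, 2 and 0 peaks in the overexpression lists, against 2, 3 and 1 in the control lists. A peak at chr20:63488012-63488425, at one end of the gene, had folds of 5.06 and 11.3 in overexpression replicates 1 and 2, against 5.20, 5.97 and 7.11 in the control lists, so that the highest and the lowest value are both of overexpression.

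EEF2K, the kinase that turns off eEF2, had 2, 4 and 0 peaks in the overexpression lists, against 1, 6 and 3 in the control lists. Its position chr16:22280198-22280376 had folds of 10.57 and 5.17 in overexpression replicates 1 and 2, while control gave 5.45 and 6.4 in replicates 2 and 3. EEF1AKMT2, a lysine methyltransferase of eEF1A, had 2, 2 and 0 peaks against 1, 0 and 2. Its start peak at chr10:124791724-124791870 had folds of 11.1 and 5.37 in overexpression replicates 1 and 2, while control gave 9.39 and 8.18 in replicates 1 and 3. EEF1D, part of the exchange factor of eEF1A, had 3 peaks, all in control replicate 2. The methyltransferases EEF1AKMT1 and EEF1AKMT4 were each in 1 list of both groups, and EEF1AKMT3 and EEF2KMT in control replicate 2 alone. In all, 10 of the 40 factor genes were found in control replicate 2 alone, the longest list. The share of all genes found in that list alone was not computed. In exactly 1 list, of either group, were 12 of the 40 (30%), close to the 28.6% of all genes.

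Merged over lists, the 216 peaks made 109 positions, and 53 of them (48.6%) were in at least 2 lists, against 32.5% of all positions on mRNA. In at least 4 lists were 18 positions on 12 genes (16.5%, against 7.47%). More overexpression lists held 13 positions (11.9%, against 35.3%), more control lists 75 (68.8%, against 51%), and lists of both groups 37 (33.9%, against 25%). Every control list but no overexpression list held 5 positions (4.59%, against 0.575%), on EIF3C, EIF3CL and EIF5B, and 0 showed the reverse (against 0.163%). The EIF3CL position and 1 of EIF3C had folds within 0.1 of each other in each list. Of the 53 positions in 2 or more lists, 40 (75.5%) had the same ends in every list that held them, against 44.8% over all genes. Outside overexpression replicate 3, where 2 of 5 positions were in another list, the share of a list's positions found elsewhere was 88.0% and 88.9% in overexpression replicates 1 and 2, and 93.8%, 47.1% and 85.1% in control replicates 1, 2 and 3. These shares per list were not computed over all genes, and the lists differ in length, so they have no background.

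**Figure D5:**
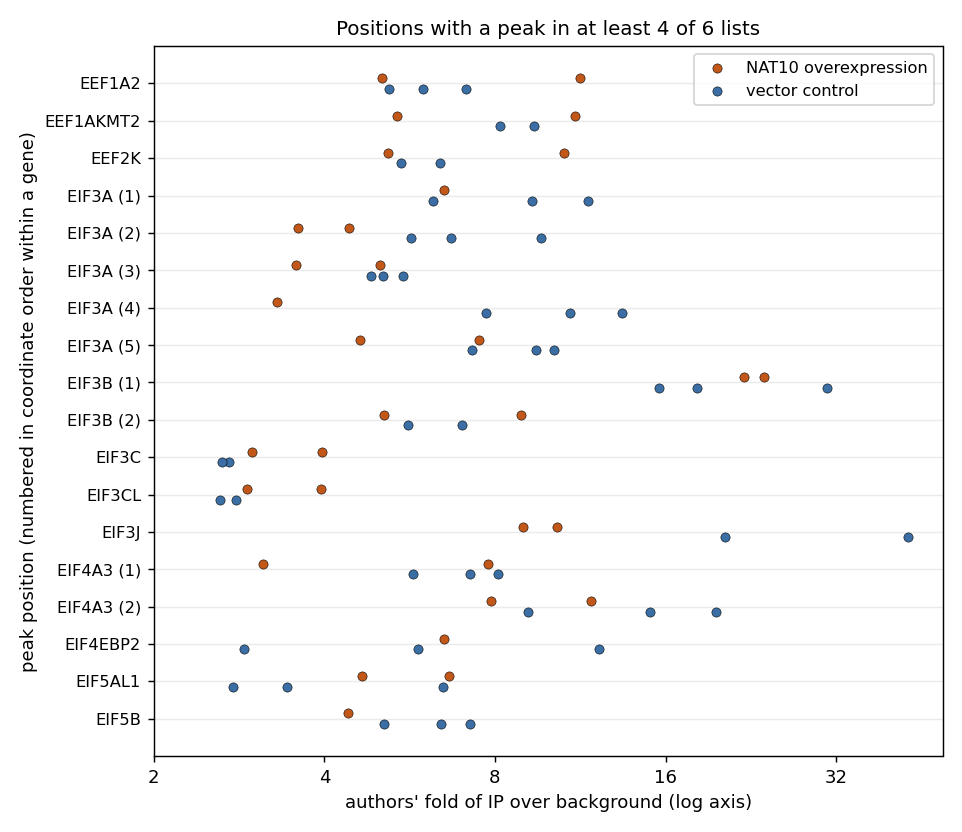
The authors' fold (horizontal, log axis) at the 18 positions on translation factor genes with a peak in at least 4 of the 6 lists, 1 point per list. The NAT10 overexpression points lie left of all vector control points at 4 positions (EIF3J, EIF5B and 2 of EIF3A), right of them at 2 (EIF3C and its copy EIF3CL) and overlap them at 12.

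These shares of the 18 positions were close to the background. Every overexpression fold lay below every control fold at 22.2% of them, against 21.4% of the 2885 positions of all genes in at least 4 lists, and above at 11.1%, against 12.6%.

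Peaks reaching into the RefSeq start window (250 bases before to 50 after a gene start) made up 28 of 153 factor peaks with a window in the table (18.3%), against 14.9% of all peaks. By list the shares were 21.1%, 20.8% and 0% in the overexpression lists and 27.3%, 14% and 18.2% in the control lists, and those of all peaks were 13.3%, 14.8% and 12.6% against 28.8%, 10.1% and 20.7%. The factor peaks were thus above all peaks in 3 lists and below in 3. The 28 peaks lay on 12 of the 28 factor genes with a window.

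Several core factors had no peak in these lists. Among them were EEF1A1 and EEF2, the main elongation factors, EIF4A1 and EIF4A2, the cap-complex helicases, EIF4G2, EIF4H, EIF1, EIF5, EIF6 and EIF2S3, and the eIF3 subunits EIF3F, EIF3G, EIF3I and EIF3M. By family, 4 of 11 eIF2, 4 of 14 eIF3, 6 of 16 eIF4 and 6 of 14 eEF genes were without a peak. The eEF count includes EEF1AKMT4-ECE2, whose symbol joins those of EEF1AKMT4 and ECE2. No share of all RefSeq genes was computed to set beside these counts.

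Other genes of translation, from a list of 52 that includes the eIF2 kinases, release factors, poly(A)-binding proteins, mTOR and mitochondrial factors, were given for comparison. Of these, 32 had a peak, 6 (18.8%) leaning to overexpression and 16 (50%) to control, against 25.6% and 46.3% of all genes, with a median difference of −0.5 lists. By list 20, 17 and 3 had a peak in the overexpression lists, against 10, 21 and 21 in the control lists. EIF2AK1, the heme-regulated eIF2 kinase, was in overexpression replicate 1 (fold 2.91), against all 3 control lists (5.84, 12.2 and 6.58). EIF2AK2, the double-stranded RNA sensor PKR, and EEFSEC, the elongation factor for selenocysteine, were each in 0 overexpression lists and in control replicates 2 and 3. MTRF1L, a mitochondrial release factor, was in overexpression replicates 1 and 3 and in no control list. EIF2AK3, the stress kinase PERK, and ETF1, the release factor eRF1, were each in overexpression replicates 1 and 2 and in all 3 control lists. No gene of this list passed Fisher's exact test (adjusted p = 1 for each of these 6).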

How the data were processed

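Per the labels, HaCaT cells received NAT10 overexpression plasmids or an empty vector, and IP and input libraries were made from 3 replicates of each. Groups and replicate numbers come from the sample titles. The submitters' processing notes name the GRCh38 build, HISAT2 2.0.4, cutadapt 1.9.3 and FastQC. MACS appears in the peak names (version not given in the sources used here). For each peak the authors deposited, per the file headers, a score (−10 times the log10 p-value), a linear fold ratio, a false discovery rate and a length in bases. The deposited rate has no stated unit and is taken here as percent, since it reaches 100. Peaks were called per replicate. Depth per sample is unknown.

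Members were matched by symbol with python 3.11.15 and pandas 2.3.3. Empty lines were skipped, 2 in overexpression replicate 2 and 3 in control replicate 2. Starts count from 0 in the files and are printed from 1. Peaks of a gene that overlapped by at least 1 base were merged into a position. Peak presence was tested for all 10870 genes with Fisher's exact test (scipy 1.17.1), and the number of peaks with an exact permutation test (20 splits of the lists into groups of 3), each with Benjamini-Hochberg adjustment over all genes and a threshold of 0.05. The tests were run on simulated data as a check of the code only, since with 3 lists against 3 no gene can be called. Values in each list are given for genes in at least 4 lists or differing by 2 or more lists between groups, and for the gene of highest fold of each family. Remaining members were named for their roles after their values were seen. The other translation genes named are the 4 that differed by 2 lists and, of those that differed by 1 list and were in 5 lists, the first 2 by name. The members and gene lists were chosen with earlier results of these data known. RefSeq (GRCh38.p14) gave spans for all 40 genes, 36 by gene identifier and the others by symbol. Start windows were found for 28. On 3027 overlapping windows of opposite strands, all were reverse complements, so the sequences follow the gene's strand.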

Additional observations from a re-analysis of the deposited data

How the results depend on the processing

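The lower share of translation factor genes among genes with a peak in overexpression lists (difference −0.17 percentage points) kept its direction under every alternative run, at −0.078 without control replicate 1 and overexpression replicate 3 and at −0.21 to −0.10 with 1 list left out. The share of peaks (−0.29) also kept it, at −0.37 to −0.18 with 1 list left out, −0.15 without control replicate 1 and overexpression replicate 3 and −0.38 with a score of at least 100. Leaving out pairs of lists or near-identical copies was chosen after seeing the data. The difference in genes per list (−10) ran from −14.5 to −4.5 with 1 list left out and was 0 without control replicate 2 and overexpression replicate 3. In that setting the differences were 0.5 for EIF2, EIF3 and EIF4, −0.5 for EIF5 and EIF6 and 0 for EEF1 and EEF2, and 8 genes were in more control lists. With 1 list left out, genes in more overexpression lists numbered 5 to 9 and those in more control lists 21 to 35, against 4 and 29. With list lengths equalized at 3105 peaks these were 7 and 12, and the differences for EIF1, EIF2 and EEF2 were 0. With a fold of at least 4, 7 genes were in more overexpression lists, and among genes in at least 2 lists, 18 were in more control lists. Without regulators the EEF2 difference was 0, since no gene of that family was left. The median log2 fold of factor peaks differed by 0.12 and ran from 0.0030 to 0.24 with 1 list left out. It turned to −0.10 with a score of at least 100, −0.19 with equalized lists, −0.35 without regulators and −0.043 without control replicate 2 and overexpression replicate 3, so it has no settled direction. The 53 shared positions fell to 33 with a score of at least 100 and 21 with equalized lists, and numbered 39 to 51 with 1 list left out. Over genes, the deviations of same-numbered replicates had correlations of 0.000406, −0.0663 and −0.0649. Those of overexpression replicate 2 with control replicate 3, and of 3 with 2, were 0.0675 and 0.0641. These values cannot show whether same-numbered replicates were handled together, because joint handling need not leave a shared deviation. With the replicate number as a block (sign-flip test), 0 genes were called, as without it, and the smallest p of that test is 0.25. The cause of these shifts was not tested. Depth is unknown, so a missing peak does not show that a site is not acetylated.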
